A study of Mus musculus with 21 samples.

Results

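Mesoderm progenitors (MPs) are the cells of the caudal end of the mouse embryo that feed new presomitic mesoderm into the growing trunk and tail. Here their transcriptome at embryonic day (E) 9.5 was set against that at E8.5. The members of the comparison are the genes with 10 FPKM (fragments per kilobase of transcript, scaled to the number of mapped fragments) or more in at least 1 of both MP libraries, 6533 of the 23983 genes listed. Of these, 6415 were above 0 at both stages, 95 were listed at 0 at E8.5 and 23 were listed at 0 at E9.5. The genes at 0 are described apart, since a 0 can be a transcript that was missed.

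The series holds 21 samples, of which 9 are RNA-seq libraries, 6 of them embryonic, and 12 are of other kinds and were not used here. Both MP libraries came from pooled caudal ends of reporter embryos, Theiler stage 12 for E8.5 and 16 for E9.5, sorted as T-positive, Noto-negative and Foxa2-negative cells. All embryonic groups share 3 reporters inserted as BACs (bacterial artificial chromosomes) into F1G4 embryonic stem cells, given in the labels as C57BL/6N x SV129, namely T::H2B-Venus, Noto::H2B-mCherry and Foxa2::H2B-mTurquoise. The labels give tetraploid complementation as the way in which the embryos were made, whereas the text of the study gives diploid aggregation for this line, which leaves host cells in the embryo. Host cells carry no reporter. The sort reads a stable nuclear protein driven by the T regulatory sequences of the BAC, not T transcript itself. Notochord progenitors (NotoPs; positive for all 3 reporters) from the same stages and trunk notochord cells from both stages serve as comparison. The E8.5 MP library was made from 24 cells of 5 embryos with 9 to 11 somites and holds 1198064 de-duplicated mapped reads, and the E9.5 MP library from 250 cells of 5 embryos with 24 to 28 somites and holds 6246472 reads. If each read counts as 1 fragment, 1 read in a transcript of 2000 nucleotides is worth 0.417 FPKM at E8.5 and 0.080 FPKM at E9.5, and 10 FPKM stand for about 24.0 and 125 reads. Each condition has 1 library. Differences below therefore lack a replicate check and carry neither SD nor p-value, and the values describe these libraries.

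As background, MPs leave the primitive streak and later the tail bud under the control of Wnt and Fgf signals and the T-box factors T and Tbx6, and pass through the presomitic mesoderm, where Notch-driven oscillations precede segmentation. The Hox genes are switched on in the order in which they lie along the chromosome, so that progenitors of later embryos carry more posterior Hox transcripts. At E8.5 the caudal end still contributes to the trunk and lies next to lateral plate mesoderm, allantois and hindgut, whereas by E9.5 the tail bud has taken over axis extension.

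The label was checked on markers. T, the gene whose reporter was sorted for, was 74.8 FPKM at E8.5 and 160 FPKM at E9.5, Tbx6 39.3 and 67.2, Msgn1 27.5 and 123, Dll1 56.8 and 101, and Cdx2 50.8 and 52.7. Noto was listed at 0 in both MP libraries and Foxa2 was 1.25 and 0.860 FPKM, whereas E8.5 NotoPs had 152 FPKM of Noto and 57.0 of Foxa2. Of the 8 caudal and presomitic mesoderm markers, all 8 reached 10 FPKM in at least 1 MP library, and only Fgf8 was listed at 0 at E8.5. The summed level of these 8 genes was 266 FPKM at E8.5 and 570 at E9.5. In NotoPs the same 8 genes summed to 1293 and 1045 FPKM, of which T was 909 and 744. Their sum therefore does not set MPs apart from NotoPs. Blood markers (5 of 5) were at 0 in both libraries, and endothelial, germ cell and neural tube markers summed to at most 8.27 FPKM in either. Lateral plate and extraembryonic mesoderm markers (5 genes) summed to 68.1 FPKM at E8.5 and 0.807 at E9.5, extraembryonic endoderm markers (4 genes) to 99.3 and 0.926, and gut endoderm markers (5 genes) to 39.9 and 3.19. Both MP libraries thus held caudal mesoderm markers, no Noto and little Foxa2. The E8.5 library also carried transcripts of lateral mesoderm and endoderm whose sums were close to 0 at E9.5.

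Changes were computed as log2 of (E9.5 FPKM + 1) over (E8.5 FPKM + 1), and the added 1 makes changes of low genes look smaller than they were. Here a gene fell or rose when this ratio passed 3-fold, a log2 value of 1.58. A gene that reached the level limit of 10 FPKM at 1 stage alone is by definition higher at that stage. Among the 6415 genes above 0 at both stages, 496 (7.73%) fell and 325 (5.07%) rose, and the median log2 ratio was -0.13. The excess of falls depended on the kind of scaling. Rescaling by the median ratio over genes at 1 FPKM or more in all embryonic libraries left 486 falls and 319 rises. When both libraries were set to the same FPKM sum, 402 genes fell and 422 rose, the share of falls among the changes went from 60.4% to 48.8%, and the median moved to 0.02. The NotoP pair, with 250 cells in each library, had 2.28% of 6698 genes lower and 2.34% higher by the same rule, and the trunk notochord pair, with 73 and 90 cells, 5.67% and 5.77% of 6935 genes. The last gene counted as falling was 1500012F01Rik (log2 -1.59, 158 to 52.0 FPKM). On the other side, the last gene counted as rising was Zw10 (1.59, 6.27 to 20.8 FPKM) and the first not counted was Idh3g (1.58, 15.6 to 48.8 FPKM).

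The share of changed genes shrank with expression level. Among genes with a mean of 10 to 20 FPKM in the MP pair, 8.12% fell and 5.64% rose (n = 2093). At a mean of 100 FPKM or more, 2.26% fell and 1.05% rose (n = 664). In NotoPs the corresponding shares were 2.096% and 2.22% (n = 2433) and 0.345% and 0% (n = 580). The difference between upper and lower quartile of the log2 ratios was 1.17 in MPs, 0.78 in NotoPs and 1.11 in trunk notochord. The MP pair, which holds the library of fewest cells and fewest reads, had the widest scatter of the 3 pairs. The part of library input in the calls was not tested.

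**Figure D1:**
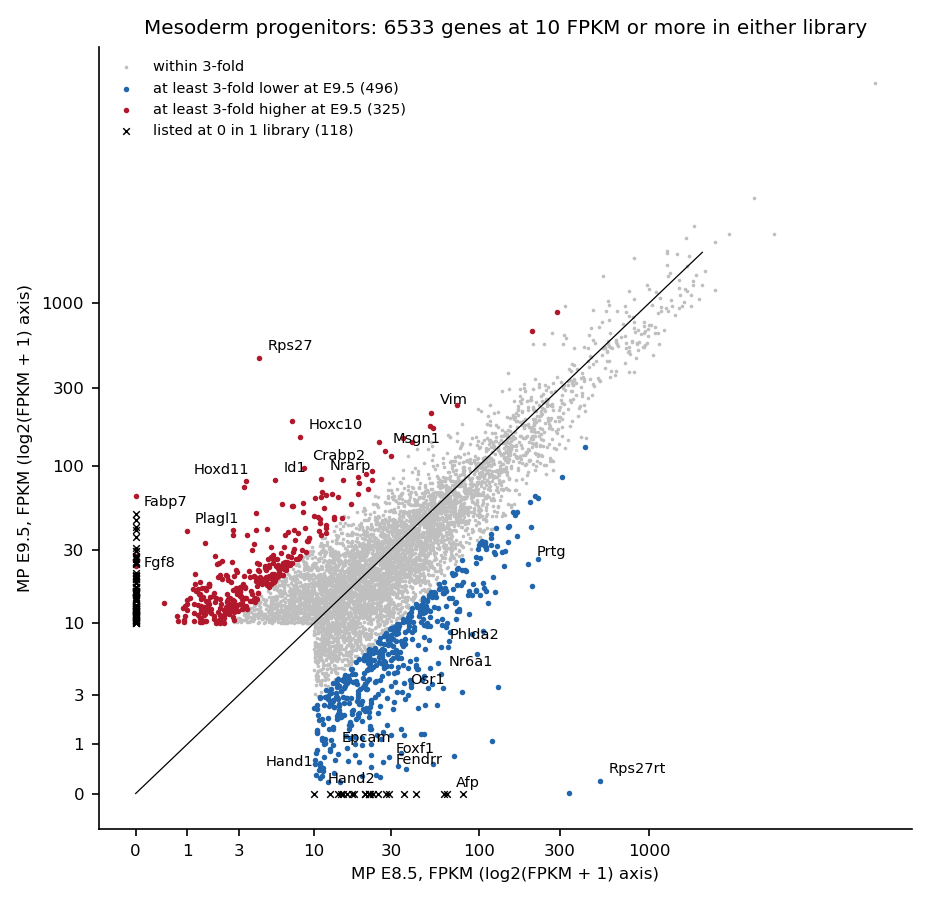
FPKM of the 6533 genes in MPs at E8.5 (x axis) and E9.5 (y axis), both on a log2(FPKM + 1) scale, 1 point per gene and 1 library per axis. Blue points are the 496 genes that fell, red points the 325 that rose, crosses the 118 genes listed at 0 in 1 library, and the line marks equal levels.

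The sequences that follow are the RefSeq promoter windows (GRCm38.p6, 250 bases before to 50 after the gene start) of 3 genes that rose and 3 that fell or dropped to 0, shown as examples from posterior Hox genes, the presomitic program, the falls that NotoPs share, and lateral plate mesoderm. The 3 that rose are those of their lists whose window holds the motif, so they do not represent the lists. Capitals mark TTTATG on either strand (CATAAA is the same motif on the other strand), letters that caudal-type (Cdx) and posterior Hox homeodomains are known to bind. Hoxd11 lies on the plus strand at chr2:74679308-74679607, Msgn1 on the minus strand at chr12:11208899-11209198, Hes7 on the plus strand at chr11:69120203-69120502, Nr6a1 on the minus strand at chr2:38926412-38926711, Prtg on the plus strand at chr9:72807024-72807323 and Hand2 on the plus strand at chr8:57320733-57321032.
Hoxd11: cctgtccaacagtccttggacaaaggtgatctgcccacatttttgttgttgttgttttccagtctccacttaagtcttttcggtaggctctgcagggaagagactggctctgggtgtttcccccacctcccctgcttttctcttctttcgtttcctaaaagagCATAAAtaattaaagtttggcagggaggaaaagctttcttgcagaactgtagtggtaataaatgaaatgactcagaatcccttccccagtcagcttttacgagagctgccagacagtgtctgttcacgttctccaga
Msgn1: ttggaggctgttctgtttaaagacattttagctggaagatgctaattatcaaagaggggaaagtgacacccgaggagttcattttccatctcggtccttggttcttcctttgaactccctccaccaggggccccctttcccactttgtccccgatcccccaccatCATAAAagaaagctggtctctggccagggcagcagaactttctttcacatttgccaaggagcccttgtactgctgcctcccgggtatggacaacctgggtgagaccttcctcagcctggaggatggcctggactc
Hes7: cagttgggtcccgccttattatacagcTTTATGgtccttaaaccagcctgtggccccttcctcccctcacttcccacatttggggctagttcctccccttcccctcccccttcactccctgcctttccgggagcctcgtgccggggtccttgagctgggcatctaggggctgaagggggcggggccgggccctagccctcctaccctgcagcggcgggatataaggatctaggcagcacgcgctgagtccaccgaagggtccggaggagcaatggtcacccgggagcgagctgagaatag
Nr6a1: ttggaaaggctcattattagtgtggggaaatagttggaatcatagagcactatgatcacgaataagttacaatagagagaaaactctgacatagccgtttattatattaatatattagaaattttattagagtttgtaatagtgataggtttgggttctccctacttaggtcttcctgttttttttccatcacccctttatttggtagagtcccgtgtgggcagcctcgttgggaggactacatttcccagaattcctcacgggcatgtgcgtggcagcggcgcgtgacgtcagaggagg
Prtg: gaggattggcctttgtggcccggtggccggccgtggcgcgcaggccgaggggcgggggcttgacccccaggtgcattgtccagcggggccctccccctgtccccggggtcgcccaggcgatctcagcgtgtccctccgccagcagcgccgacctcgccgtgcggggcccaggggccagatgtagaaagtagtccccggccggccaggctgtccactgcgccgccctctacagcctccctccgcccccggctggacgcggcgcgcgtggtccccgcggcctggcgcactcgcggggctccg
Hand2: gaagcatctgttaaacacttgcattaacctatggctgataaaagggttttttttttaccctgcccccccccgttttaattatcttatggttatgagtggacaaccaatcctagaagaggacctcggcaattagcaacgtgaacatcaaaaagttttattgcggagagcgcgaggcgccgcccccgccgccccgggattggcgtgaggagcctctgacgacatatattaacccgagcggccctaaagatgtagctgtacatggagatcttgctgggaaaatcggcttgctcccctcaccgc

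Counted from the start that the window is built on, the motif lies at -87 in Hoxd11, -85 in Msgn1 and -223 in Hes7, and the windows of Nr6a1, Prtg and Hand2 do not hold these letters. In Hes7 this start is that of an inner transcript, and the annotated gene begins upstream at 69118906. Of the 4 posterior Hox genes that rose and have a window, 1 holds the motif, and of the 5 presomitic genes that rose and have a window, 2 hold it. Over the first window of each symbol, 12.1% of 27025 symbols hold it. Among genes with a window it was found in 15 of 356 that fell (4.21%), 21 of 246 that rose (8.54%) and 279 of 4879 above 0 at both stages (5.72%). A match is a description of these letters and not a bound site.

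Lateral plate, intermediate and extraembryonic mesoderm genes had the lowest median of the 23 gene lists. Of the 17 listed, 5 reached 10 FPKM, all at E8.5. Foxf1, a forkhead factor of splanchnic mesoderm (chromosome 8, 121084386 to 121088154), fell from 26.8 to 0.566 FPKM, a log2 ratio of -4.15. Hand1, a bHLH factor of lateral and extraembryonic mesoderm, fell from 10.9 to 0.241 FPKM (-3.27). Osr1, a zinc finger factor of intermediate mesoderm, fell from 34.8 to 3.18 FPKM (-3.10). Hand2 went from 22.1 FPKM and Tbx20, a T-box factor of cardiac and lateral mesoderm, from 15.3 FPKM to a listed 0. The median of the 3 members above 0 at both stages was -3.27, against -0.13 for all genes. Since these members passed the level limit through E8.5 alone, the limit itself favours falls among them. Below the level limit, Tbx4 went from 4.31 and Gata6 from 4.06 FPKM to 0, and Prrx1 had 5.08 and 0.280 FPKM. These were picked, and values of the other members below the limit are not given. Over all 17 genes the sum was 139 FPKM at E8.5 and 15.8 at E9.5, with 5 genes at 0 at each stage.

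The long non-coding RNA Fendrr (chromosome 8, 121054882 to 121083110), which is transcribed away from Foxf1 from the neighbouring start, was 36.0 FPKM in E8.5 MPs and 0 at E9.5, and was listed at 0 in all 4 notochord libraries. Gata2 fell from 20.0 to 0.282 FPKM and Gata3 from 22.6 to 0.711 FPKM (log2 -4.03 and -3.79). Both encode zinc finger factors known from extraembryonic mesoderm and trophoblast, and both were named after their values were seen. In NotoPs, Foxf1 was 0.778 FPKM and Hand1 0.497 FPKM at E8.5, both were listed at 0 at E9.5, and Hand2 was at 0 at both stages. MPs differentiated in culture (MPdiff) are T-positive, Noto-negative cells of another F1G4 line, with TRE::Foxa2-IRES-EGFP, T::H2B-mCherry-T2A-irTA and Noto::H2B-mTurquoise. They had 36.6 FPKM of Foxf1 and 26.4 of Hand1, but 7.78 of Osr1, 5.66 of Fendrr and 0.797 of Hand2. Gata2 and Gata3 were 0.402 and 1.46 FPKM in MPdiff.

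Endodermal and epithelial transcripts showed the same direction. Afp (alpha-fetoprotein of yolk sac and liver) was 62.2 FPKM at E8.5, Apob 23.3 FPKM and Ttr 8.502 FPKM, and all 3 were listed at 0 at E9.5. In trunk notochord, Afp was 2.11 FPKM at E8.5 and 95.7 at E9.5. Apoa1 went from 5.25 to 0.926 FPKM. S100g, a calcium-binding protein of absorptive epithelia, was the highest of the 23 genes listed at 0 at E9.5, with 81.1 FPKM at E8.5. Next came Rnaset2a with 64.7 FPKM, whose near copy Rnaset2b had 33.3 and 42.9 FPKM, so that its value is uncertain. Both copies summed to 98.0 FPKM at E8.5 and 42.9 at E9.5. After Afp came the uncharacterised LOC102636514 with 42.2. Of the 23 genes (0.352% of 6533), 14 were also at 0 in NotoPs of both stages, and their median at E8.5 was 22.1 FPKM. Epcam, an epithelial adhesion molecule, fell from 22.7 to 0.444 FPKM (log2 -4.03), Krt8 from 30.2 to 1.27 (-3.78) and Krt18 from 16.7 to 1.63 (-2.75), both simple-epithelium keratins. NotoPs had far more of both, with Krt8 at 250.3 and 109 FPKM and Krt18 at 304 and 86.5. The gut marker Sox17 had 5.37 FPKM and 0. In a pooled library fewer cells of a type and less RNA per cell cannot be told apart, and the part of other cell types in these falls was not tested.

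**Figure D2:**
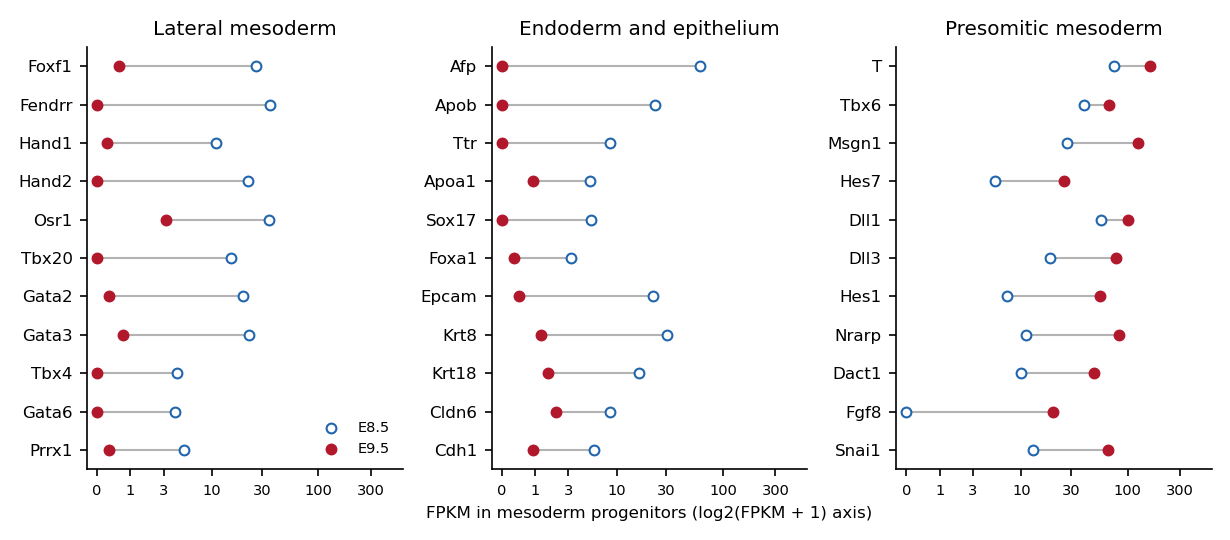
FPKM in MPs at E8.5 (open blue) and E9.5 (filled red) on a log2(FPKM + 1) axis for genes of lateral mesoderm, of endoderm and epithelium, and of presomitic mesoderm, 1 library per stage. The genes were picked for the panels, some after their values were seen. Those of the left and middle panels were lower at E9.5. Those of the right panel were higher, with Fgf8 listed at 0 at E8.5. Of the 14 presomitic and Notch clock list genes above 0 at both stages, 4 were lower at E9.5.

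The presomitic program moved the other way. Of 18 listed genes of presomitic mesoderm and the Notch clock, 14 were above 0 at both stages, 6 rose and 0 fell, with a median log2 ratio of 0.84 against -0.13 for all genes, of which 5.07% rose and 7.73% fell. Msgn1, a bHLH factor of presomitic mesoderm (chromosome 12), rose from 27.5 to 123 FPKM (2.13). The clock gene Hes7 rose from 5.38 to 26.1 FPKM (2.09) and the Notch ligand Dll3 from 19.2 to 78.2 FPKM (1.97). Hes1, a Notch effector, rose from 7.15 to 56.4 FPKM (2.82), and Nrarp, a feedback regulator of Notch, from 11.1 to 83.5 FPKM (2.81). Dact1, a modulator of Wnt signalling, rose from 9.95 to 49.2 FPKM (2.197). Hes7, Hes1 and Dact1 passed the level limit through E9.5 alone, so the limit itself favours rises among them. The levels of Tbx6 (log2 0.76), Dll1 (0.83) and Lfng (0.85; 17.0 and 31.6 FPKM) were higher at E9.5 without passing 3-fold, and Notch1 stood at 42.1 and 40.4 FPKM. In NotoPs the median of the same 14 genes was -0.29. Dact1 rose there as well (1.88), whereas Hes7 fell from 74.3 to 22.7 FPKM (-1.67). Markers of lateral mesoderm and endoderm moved in the opposite direction in the same MP libraries, and their part in the presomitic values was not tested.

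More mature paraxial mesoderm was not raised as a whole. Among the 12 genes of somite and paraxial mesoderm, 5 were above 0 at both stages, with a median of -0.26 that turned to 0.15 when FPKM were rescaled to the sum that TPM have. Of these 5 genes, 1 rose past 3-fold and 0 fell, against 5.07% and 7.73% of all genes. Meox1 was 37.6 and 14.3 FPKM, Foxc1 44.2 and 54.0, and Foxc2 28.6 and 23.7. Pax1 and Uncx were at 0 at both stages. Of the mesenchymal genes, Snai1 rose from 13.1 to 66.6 FPKM (2.26), Vim from 52.4 to 212 (2.00) and Cdh11 from 11.1 to 37.4 (1.67), while Fn1 stood at 375 and 326 FPKM and Cdh2 at 105 and 139. Beside the 3 epithelial falls, the list of 10 epithelial and mesenchymal genes above 0 at both stages therefore had 3 genes in each direction and a median of 0.16, which turned to -1.47 with a minimum of 5 FPKM. In the extracellular matrix list (12 genes above 0 at both stages), Sparc rose from 0.983 to 14.2 FPKM (2.94) and Has2, a hyaluronan synthase, from 6.73 to 38.7 FPKM (2.36), and 0 fell.

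Of the 23 gene lists, the posterior Hox genes had the highest median. All 5 genes of paralogue groups 10 to 13 that were above 0 at both stages and reached 10 FPKM rose, with a median log2 ratio of 3.05 against -0.13 for all genes. Hoxa10 (chromosome 6) went from 10.1 to 62.9 FPKM (2.52), Hoxc10 (chromosome 15) from 8.14 to 151 (4.06), Hoxd10 (chromosome 2) from 11.2 to 68.5 (2.51), Hoxd11 from 3.28 to 74.5 (4.14) and Hoxd13 from 2.09 to 24.7 (3.05). Since Hoxc10, Hoxd11 and Hoxd13 passed the level limit through E9.5 alone, the limit itself favours rises among them. Hoxa11 and Hoxc11 were listed at 0 at E8.5 and had 26.98 and 25.0 FPKM at E9.5. Over all 12 genes the sum was 34.8 FPKM at E8.5 and 447 at E9.5, 11 were higher at E9.5, 7 were at 0 at E8.5, and Hoxb13 was at 0 in both.

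For more anterior Hox genes, the counts past 3-fold did not stand out from the 7.73% of all genes that fell and 5.07% that rose. None of the 11 genes of groups 1 to 4 passed 3-fold, and their median was 0.35. Hoxd1 went from 76.7 to 27.3 FPKM (-1.46) and Hoxb1 from 16.2 to 37.9 (1.17). In groups 5 to 9 (14 genes, median -0.08, and 0.12 after the same rescaling), Hoxb9 fell from 127 to 41.2 FPKM (-1.60) and Hoxb5 rose from 1.37 to 10.1 (2.23). Hoxb7 (49.1 and 19.1 FPKM), Hoxb8 (28.5 and 12.8), Hoxb6 (25.5 and 10.7) and Hoxc8 (44.9 and 18.0) were lower by less than 3-fold. Within the HoxB cluster all 4 genes from Hoxb6 to Hoxb9 were thus lower at E9.5. The NotoP medians were 0.39, 0.79 and 4.70 for groups 1 to 4, 5 to 9 and the 5 posterior genes. In NotoPs Hoxb9 was 18.2 and 21.7 FPKM, and Hoxc10 went from 0 to 24.9. E8.5 MPs already had 18.1 FPKM of Hoxc9 and 29.7 of Hoxa9, where E8.5 NotoPs had 0 and 6.72.

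**Figure D3:**
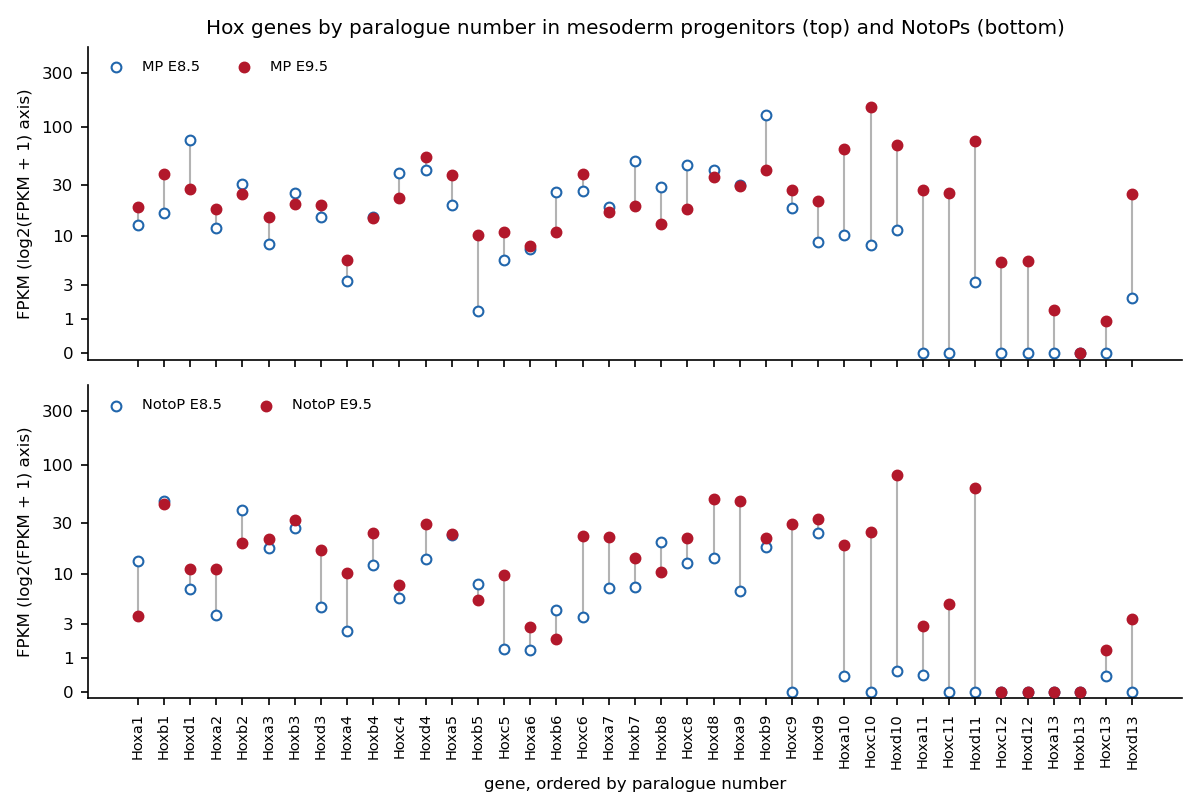
FPKM of the Hox genes, ordered by paralogue number on the x axis, at E8.5 (open blue) and E9.5 (filled red) in MPs (top) and NotoPs (bottom), on a log2(FPKM + 1) axis with 1 library per stage. In MPs the 5 posterior genes above 0 at both stages were all higher at E9.5, and Hoxb9 went from 127 to 41.2 FPKM.

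Of the signalling lists, none had all its members past 3-fold. In the Wnt list, Notum, a secreted Wnt inhibitor, fell from 11.6 to 0.679 FPKM (-2.90), the only 1 of 12 members above 0 at both stages to pass 3-fold. Wnt3a had 11.3 and 18.9 FPKM, Wnt5a 53.0 and 108, Rspo3 66.1 and 155, Lef1 188 and 194, and Axin2 34.1 and 24.7. In the Fgf list (13 members above 0 at both stages), Fgf18 fell from 13.3 to 2.68 FPKM (-1.96), and Fgf17 (3.08 to 15.99, 2.06) and Fgf15 (5.74 to 23.8, 1.88) rose. Fgf8 and Fgf3 were listed at 0 at E8.5 and had 20.5 and 24.5 FPKM at E9.5. Fgf target genes were above 0 at E8.5 all the same, with Dusp6 at 63.1 and 80.9 FPKM, Spry4 at 14.7 and 44.0 and Spry2 at 12.4 and 30.7. Fgf8 was 52.6 FPKM in E8.5 NotoPs, and its 0 in the MP library of 24 cells does not show that the gene was silent.

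Among retinoic acid genes (6 above 0 at both stages), Crabp2, which carries retinoic acid to its receptors, rose from 8.65 to 97.0 (3.34). The degrading enzyme Cyp26a1 had 29.1 and 78.3 FPKM and Crabp1 188 and 116. In the list of Nodal, BMP and other TGF-beta genes (7 above 0 at both stages), Bmp7 fell from 14.1 to 0.747 FPKM (-3.12), Id1, an inhibitor of bHLH factors, rose from 5.56 to 81.8 (3.66) and the activin receptor Acvr2b from 7.63 to 26.3 (1.66). Id3 did not follow Id1, with 84.4 and 45.6 FPKM, and Id2 had 46.9 and 15.1. Gdf11, a ligand known for the trunk-to-tail transition, had 24.4 and 58.3 FPKM (1.23). Among caudal factors (10 above 0 at both stages), Cdx1 fell from 11.9 to 1.05 FPKM (-2.65) and Sp8 rose from 1.74 to 14.9 (2.54), whereas Cdx4 was 150 and 107 and Cited1 136 and 65.1 FPKM.

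**Figure D4:**
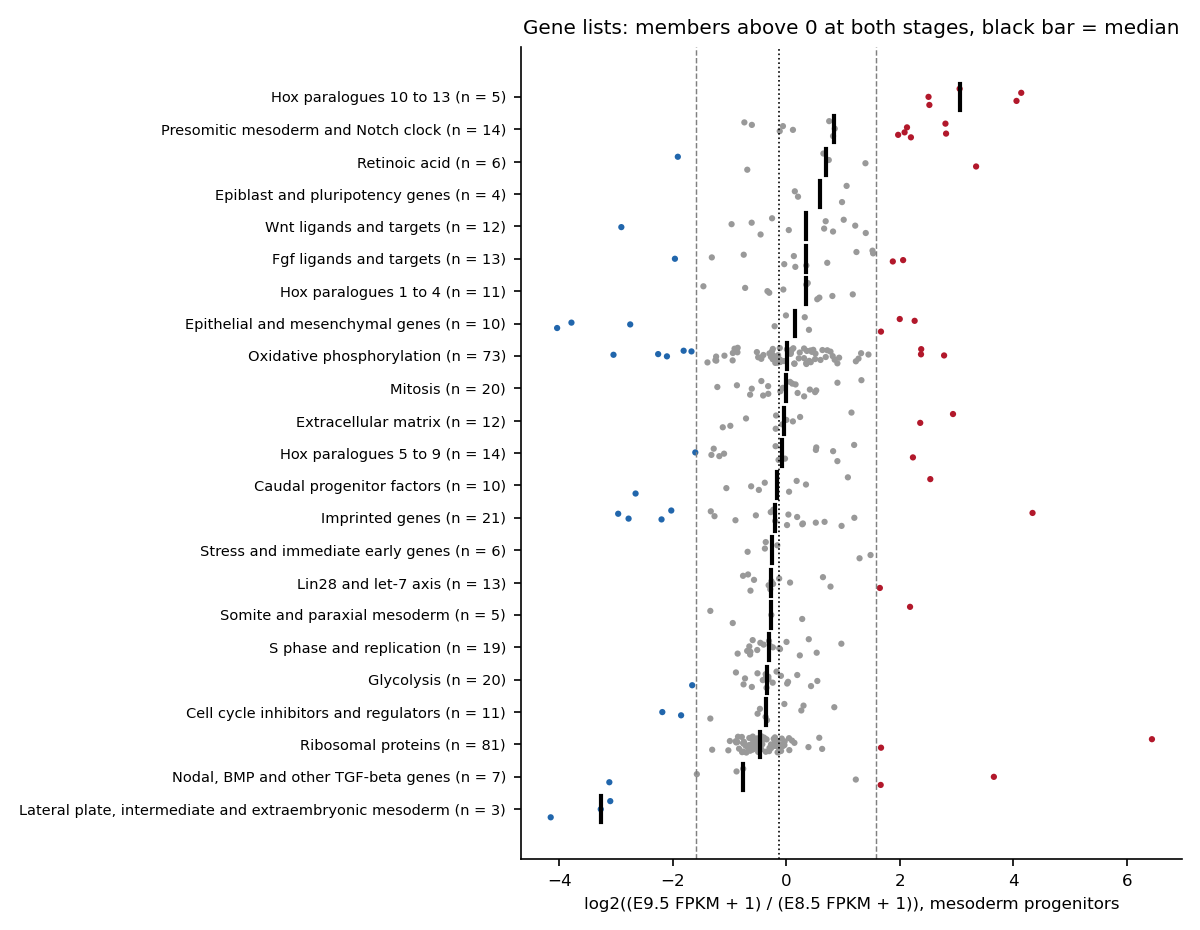
Log2 ratio of E9.5 over E8.5 in MPs (x axis) for the members of each gene list above 0 at both stages and at 10 FPKM or more in either library, 1 point per gene, with the list median as a black bar. Dashed lines mark 3-fold, the dotted line the median of all genes at -0.13, and blue and red points the genes past 3-fold. Posterior Hox genes (median 3.05) and lateral mesoderm genes (median -3.27) lie at the ends. The level limit favours rises among posterior Hox genes that reached it at E9.5 alone, and falls among the lateral mesoderm genes.

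Growth and housekeeping lists are set beside all genes, of which 7.73% fell and 5.07% rose. The median log2 ratio of all genes was -0.13, with quartiles at -0.71 and 0.47. Most genes were thus lower at E9.5, and counts of list members that were lower by any amount stand against that majority. Ribosomal protein genes (81) had a median of -0.47, 72 were lower at E9.5, 0 fell and 2 rose, namely Rps27 (6.44) and Rpl30 (1.67). In oxidative phosphorylation (73 genes, median 0.01), 5 fell and 3 rose. Ndufb2 went from 222 to 26.1 FPKM (-3.04) and Ndufb6 from 204 to 42.0 (-2.26), against Ndufa9 from 3.93 to 32.9 (2.78), all subunits of complex I. Of 20 glycolysis genes 15 were lower (median -0.33), with Gapdh at 865 and 514 FPKM and Aldoa at 729 and 573, and Eno3 fell from 15.8 to 4.33 (-1.66). Mitosis genes (20) had a median of 0.00 and replication genes (19) of -0.30, and none passed 3-fold in either list. Cdkn1a, a cell cycle inhibitor, fell from 12.2 to 1.92 FPKM (-2.18) and Ccne1 from 83.6 to 22.4 (-1.85). In the Lin28 and let-7 list (13 genes, median -0.26), Dis3l2 rose (4.98 to 17.8 FPKM, 1.65), while Lin28a had 160 and 133 FPKM and Hmga2 174 and 300. Stress and immediate early genes (6 above 0 at both stages) had a median of -0.26 with none past 3-fold. Epiblast genes above 0 at both stages (4) did not pass 3-fold either, and Nanog was at 0 in both libraries.

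Of 21 imprinted genes above 0 at both stages, 4 fell and 1 rose, where 7.73% of all genes fell and 5.07% rose. Phlda2 fell from 59.9 to 6.83 FPKM (-2.96), Mest from 138 to 29.3 (-2.196), Snrpn from 46.9 to 10.8 (-2.02) and the non-coding Mirg from 30.0 to 3.52 (-2.78). Plagl1, a zinc finger factor (chromosome 10), rose from 0.987 to 39.2 FPKM (4.34), and it rose in both notochord pairs too (7.53 to 37.7 FPKM in NotoPs, 2.93 to 34.3 in trunk notochord). Igf2 had 443 and 636 FPKM and Grb10 289 and 355.

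The NotoP pair shares no library with the MP pair. Both were sorted from caudal ends of 5 embryos of the same somite range at each stage and may share embryos and pools. The study lists the NotoPs as Foxa2-positive at E8.5 and Foxa2-high at E9.5, and the MPs as T-high at both stages. The part of this change of gate in the NotoP ratios was not tested. Of the 496 genes that fell in MPs, 302 (60.9%) were also lower in E9.5 NotoPs, compared with 51.3% of all 6415 genes. A fall of 3-fold or more in both was seen for 30 genes (6.05% of the 496, against 1.15% of all), and 24 of 325 genes rose 3-fold in both (7.38%, against 2.17% of all). Opposite changes were also more frequent than over all genes: 21 genes that fell in MPs (4.23%) were 3-fold higher in NotoPs, against 2.17%, and 6 that rose (1.85%) were 3-fold lower, against 1.15%. Of the genes that rose, 170 (52.3%) were higher in E9.5 NotoPs, against 48.5% of all. In trunk notochord, 275 of the genes that fell (55.4%) were lower, against 51.2% of all, and 161 of those that rose (49.5%) were higher, against 48.1%. Past 3-fold, 90 genes (18.1%) were lower in both MPs and trunk notochord, against 6.56% of all, and 30 genes (9.23%) higher in both, against 3.96%. In the opposite direction, 51 genes that fell in MPs (10.3%) were 3-fold higher in trunk notochord, against 3.96%, and 28 that rose (8.62%) were 3-fold lower, against 6.56%. Across the 6415 genes, which are not independent replicates, the log2 ratios of MPs and NotoPs correlated weakly (Pearson 0.098, Spearman 0.088).

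Among the 30 shared falls, several were strong at high level. Prtg, an immunoglobulin-family surface protein (chromosome 9, 72807274 to 72917307), fell from 196 to 24.4 FPKM in MPs and from 192 to 44.7 in NotoPs, and was 130 and 59.1 in trunk notochord. Nr6a1, a nuclear receptor needed for trunk formation (chromosome 2, 38723369 to 38926461), fell from 59.6 to 4.35 FPKM in MPs and from 54.1 to 6.39 in NotoPs, with 41.0 and 20.2 in trunk notochord. Phlda2 fell in NotoPs from 39.7 to 6.99 FPKM. Notum fell from 16.3 to 2.55 FPKM in NotoPs and Cdx1 from 17.8 to 1.47. Starting levels of Prtg and Nr6a1 at E8.5 were close in both cell types.

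The 12 shared falls with the lowest MP ratios held further genes. Erich2 fell from 47.5 to 1.31 FPKM in MPs and from 46.4 to 10.3 in NotoPs. Ppp1r1a, a phosphatase inhibitor, fell from 48.1 to 2.47 and from 99.0 to 23.4 FPKM. Hspa4l (24.8 to 1.29 FPKM in MPs), Pglyrp3 (39.8 to 3.71), Isca2 (65.8 to 6.85), Stx3 (25.9 to 2.46) and the small nucleolar RNA Snora23 (42.3 to 4.97) completed them, together with Osr1. Pglyrp3, Snora23 and Osr1 were listed at 0 in E9.5 NotoPs. Of the 30, 19 were lower and 9 higher in E9.5 trunk notochord. In MPdiff cells, sequenced on another instrument, Prtg was at 372, Nr6a1 at 53.0, Phlda2 at 99.3 and Notum at 13.6 FPKM, and no Hox gene of groups 10 to 13 exceeded 0.858 FPKM.

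**Figure D5:**
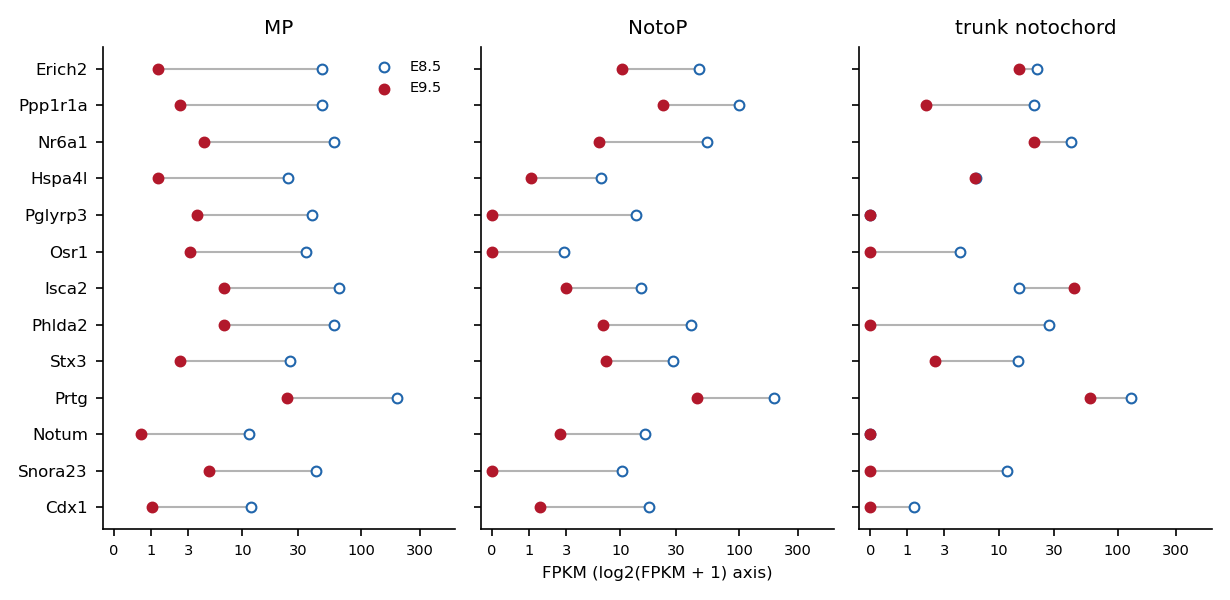
FPKM at E8.5 (open blue) and E9.5 (filled red) on a log2(FPKM + 1) axis in MPs, NotoPs and trunk notochord for the 12 genes with the lowest MP ratio among those that fell 3-fold in MPs and NotoPs, and for Cdx1. Each dot is 1 library. Prtg and Nr6a1 were lower at E9.5 in all 3 pairs.

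Several of the largest ratios belong to near copies or to values below what 1 read is worth. The largest fall was Rps27rt (515 to 0.193 FPKM, log2 -8.76) and the largest rise Rps27 (4.28 to 458, 6.44). They are near-identical copies, and their sum was 519 FPKM at E8.5 and 458 at E9.5. Rbm4 (0.00214 to 14.9 FPKM) and the overlapping read-through locus Rbm14-rbm4 (17.4 to 0) summed to 17.4 and 14.9. Rpl34-ps1 (339 to 0.00444 FPKM) is a processed copy of Rpl34, which had 203 and 267 FPKM. Their sum did not stay level, with 542 FPKM at E8.5 and 267 at E9.5. Gm12669, Akr1b3 and BC002163 also had E8.5 values below 0.05 FPKM, against 65.0, 27.4 and 23.8 FPKM at E9.5. The alignment kept 1 location for a read that fitted several, and these values are uncertain.

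The other genes at the bottom were Gng13 (119 to 1.10 FPKM), Car4 (71.9 to 0.704), Rabac1 (53.4 to 0.523), Ceacam20 (130 to 3.47), 0610005C13Rik (36.9 to 0.408), Pidd1 (33.1 to 0.473), Depdc7 (25.6 to 0.266), Erich2, Rhox8 (34.4 to 0.758) and Aamdc (45.3 to 1.32). Gng13, a G protein subunit, and 0610005C13Rik were at 0 in all 4 notochord libraries. Car4, a membrane carbonic anhydrase, was lower at E9.5 in NotoPs (15.2 and 5.45 FPKM) and trunk notochord (230 and 36.6) as well. At the top stood Hist1h4f (7.25 to 189 FPKM), Plagl1, 2610528A11Rik (3.43 to 80.4), Hoxd11, Hoxc10, Slc25a17 (1.56 to 33.2), a peroxisomal carrier, and Id1. The uncharacterised 2610528A11Rik also went from 0 to 17.9 FPKM in NotoPs.

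The 95 genes listed at 0 at E8.5 (1.45% of 6533) reached at most 50.4 FPKM at E9.5, with a median of 14.6. Of them 89 were above 0 in E8.5 NotoPs and 55 had 10 FPKM or more there. The highest were Fabp7 (50.4 FPKM at E9.5), a fatty acid binding protein, Arl4d (46.0), Snhg6 (41.6), Gpx8 (40.1) and Ndufb4 (36.3). Gpx8 and Ndufb4 had 42.7 and 35.3 FPKM in E8.5 NotoPs, while Fabp7 and Arl4d had 1.24 and 2.05. Over the whole table, 13945 genes were at 0 in the E8.5 MP library and 10719 to 12407 in the other 5 embryonic libraries.

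Transcript structure differed slightly between the groups. The longest annotated transcript had a median of 2613 nucleotides for genes that fell, 2943 for genes that rose and 3444 for all genes above 0 at both stages. Genes with a transcript under 1000 nucleotides made up 9.51%, 6.35% and 5.39%, and 26.4% of the 87 genes at 0 at E8.5 with a transcript. GC content was 50.2%, 49.7% and 48.5%. The X chromosome carried 3.45% of the genes that fell, 2.16% of those that rose and 3.45% of all.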

How the data were processed

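RNA was measured in 2 pooled libraries of sorted MPs, and 4 notochord and 1 cultured library (MPdiff) were used for comparison. The authors trimmed 5 bases from each read, aligned to mm10 with TopHat2 2.1.1 and Bowtie 1.2.2 and RefSeq models on the sequenced strand, keeping 1 location per read, removed duplicates by molecular identifiers, and deposited FPKM values from Cufflinks 2.2.1 with multi-read and bias correction and without effective-length correction. Tool names also stand in the submitters' processing notes. All 9 columns of the deposited FPKM table have a sample, and 0 were left out. Read counts per gene are not part of that table, and counting error could not be computed. The labels name inputs of approximately 200 cells or more, whereas the library table of the study lists 24 cells for E8.5 MPs, which was used here together with its read numbers.

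Log2 ratios used a pseudocount of 1 and genes with 10 FPKM or more in either library. With 1 library per condition no test was made, and called means past 3-fold. The text names the 12 lowest and 12 highest ratios among genes above 0 in both (small RNA genes left out), the 5 highest genes at 0 in each library, the 12 lowest ratios among genes 3-fold lower in NotoPs, list members past 3-fold or defining a list, and T, Noto and Foxa2. The members, the 23 gene lists and 10 marker lists were chosen with earlier results of these data known, and genes outside the rule are named as such or given as values. Positions and promoters are from RefSeq GRCm38.p6 (22565 of 23983 symbols matched), transcript lengths from GENCODE M21. The script for ratios and 3-fold calls was tested on simulated data with known changes. These changes were larger than 3-fold, in genes well above the level limit and with little noise. The simulation therefore checks the code and not how reliable the calls in these libraries are. Alternatives changed the pseudocount, minimum, fold, scaling, small RNA genes and genes at 0. Python 3.11.15, pandas 2.3.3, NumPy 2.4.6 and matplotlib 3.10.9 were used. The peak lists of the series were not used here, and the values of a few list members are not reported here.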

Additional observations from a re-analysis of the deposited data

Results flagged for a closer look

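Genes named above that passed 3-fold in opposite directions in the MP and NotoP stage pairs were set aside, and the difference itself was not tested, since each pair has 1 library per stage. In all, 18 genes with 10 FPKM or more in either NotoP library and above 0 in both did so, 12 of them lower in MPs. The 21 and 6 genes with opposite changes given earlier were counted without this limit on NotoP levels. Hes7 rose in MPs (log2 2.09) and fell in NotoPs (-1.67). Eno3, a glycolytic enzyme known from muscle, fell in MPs (-1.66) and rose in NotoPs (1.98). Rpl30 rose in MPs (1.67; 53.3 to 172 FPKM) and fell in NotoPs (-3.18) to 5.38 FPKM, and was listed at 0 in E9.5 trunk notochord. Rpl34-ps1 fell in MPs (-8.40) and rose in NotoPs (6.92). Rpl30 and Rpl34-ps1 belong to families with near-identical copies, and how reads were shared among the copies was not tested.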

How the results depend on the processing

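No paired analysis was possible because each group has 1 library and the labels give no shared replicate numbers, and no library could be left out. Of 138 list medians under alternatives, 130 moved by less than 1.5-fold, and none of the compared values of a named gene or list past 3-fold changed sign. For named genes this outcome was fixed in advance and says nothing on how firm they are. A pseudocount cannot turn the sign of a ratio, and the rescalings shifted the median of all genes by only 0.0035 and 0.14. Genes that fell (496) numbered 255 with a pseudocount of 5, 1069 at 2-fold and 192 at 5-fold. Genes that rose (325) numbered 110 with a pseudocount of 5, 489 with a minimum of 5 FPKM, 153 with 20 FPKM, 519 with none, 770 at 2-fold and 104 at 5-fold. With FPKM rescaled to the sum that TPM have, 590 fell and 756 rose; this scale multiplies all values, so 8384 genes passed the minimum of 10, and falls made up 43.8% of the changes. Genes at 0 at E8.5 (95) numbered 318 with a minimum of 5 FPKM and 22 with 20, and genes at 0 at E9.5 (23) numbered 54 and 15. The posterior Hox median (3.05) was 2.18 with a pseudocount of 5 and 4.06 with genes at 0 kept in. The lateral mesoderm median (-3.27) was -5.02 and -2.28 with pseudocounts of 0.1 and 5, -2.67 with a minimum of 5 FPKM and -4.03 with genes at 0 kept in. The epithelial and mesenchymal median (0.16) was -1.47 with a minimum of 5 FPKM and -1.56 after this rescaling (added after seeing the data), since both let in more weakly expressed epithelial genes. Medians near 0 changed sign as well under the rescaling, namely Hox groups 5 to 9 (-0.08 to 0.12), imprinted genes (-0.19 to 0.05), extracellular matrix (-0.03 to 0.14) and somite genes (-0.26 to 0.15), the last also with a minimum of 5 FPKM (0.0099). Of genes that fell in MPs, 85 and 30 fell 2-fold and 3-fold in NotoPs, and of genes that rose, 53 and 24 rose. Among alternatives added later, genes with a mean of 20 FPKM or more gave 128 of 211 falls lower and 39 of 70 rises higher in NotoPs, and the rescaling gave 420 of 756 rises higher. In the E8.5 library, 10 FPKM stand for about 24.0 reads in a transcript of 2000 nucleotides.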

Other observations

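Histone genes of the replication-dependent clusters were looked at after Hist1h4f appeared among the largest rises, so the choice followed the values. Of 57 such genes above 0 in both MP libraries and at 10 FPKM or more in either, 49 were higher at E9.5, 10 rose 3-fold or more and 0 fell, with a median log2 ratio of 0.72 against -0.13 for all genes, of which 5.07% rose and 7.73% fell. Over all genes the quartiles were -0.71 and 0.47, and fewer genes were higher than lower. Hist1h1b, a linker histone, went from 206 to 674 FPKM, Hist1h2bp from 51.2 to 176 and Hist1h2bc from 74.3 to 239. In NotoPs the median was 0.15, with 34 of 57 higher and 1 past 3-fold, and in trunk notochord 0.59, with 46 higher. The replication list of the report, which holds no histone gene, had a median of -0.30 in the same MP libraries. Many histone genes share near-identical coding sequences, so values of single members are uncertain.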
